A study of Arabidopsis thaliana with 11 samples.

Results

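The genes described here are 6 of Arabidopsis thaliana: SDC (AT2G17690), JLO (AT4G00220), AT1G59930, AT1G63540, AT4G18650 and AT4G31060. They were taken from the 28523 genes counted in each library and were chosen by their maternal share of reads, which was lower in endosperm with a met1 mutant father than in wild-type endosperm. Their values in that contrast are therefore a description, given without a test. In wild-type endosperm of both cross directions SDC, JLO, AT1G59930 and AT4G31060 were 92.3 to 100% maternal, and AT4G18650 was 83.8 to 100% maternal. AT1G63540 was not: it was read from the Landsberg erecta (Ler) allele in every wild-type library that had reads, whether Ler was mother or father, so its label as a maternal gene did not hold.

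RNA was sequenced from seeds of crosses between Columbia (Col) and Ler, 7 to 9 days after pollination, in 11 libraries. The met1 father library is endosperm of a wild-type Ler mother and a homozygous met1-6 father. That father was in Columbia-gl, came from the selfing of a heterozygote that had never been homozygous, and has Columbia-0 as its labelled ecotype. The dme mother library is endosperm of a heterozygous dme-2 Columbia-gl mother and a wild-type Ler father. The fie mother library is endosperm of a heterozygous fie-1 Ler mother and a wild-type Columbia-0 father. The labels do not say whether the endosperm of heterozygous mothers was sorted by seed phenotype. Each mutant has 1 library. Wild-type pure endosperm has 3 libraries (replicates 1 and 2 with a Columbia-0 mother, replicate 3 with a Ler mother), wild-type full endosperm has 2 (replicate 1 with a Columbia-0 mother, replicate 2 with a Ler mother) and wild-type embryo has 3 (replicates 1 and 2 with a Columbia-0 mother, replicate 3 with a Ler mother). What sets a pure preparation apart from a full one is not stated in the labels. Nor is it stated whether replicates came from separate plants, so that each p-value reflects the spread of these libraries alone, which may be technical. The titles of 2 libraries, replicate 1 of pure endosperm and of embryo, carry "LCM".

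In flowering plants some genes are read from only the maternal or only the paternal copy in the endosperm, the nutritive tissue beside the embryo. MET1 copies CG methylation onto new DNA strands, and pollen of met1 plants delivers a paternal genome that has lost much of it. DME is a glycosylase that removes methylated cytosine from maternal alleles in the central cell before fertilisation, and FIE is a Polycomb protein that keeps many seed genes silent. A maternally expressed gene silenced on the paternal copy by CG methylation is the textbook case of a gene read from both copies after a cross with a met1 father, FWA being the usual example.

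The libraries held between 358142 reads (pure endosperm replicate 1) and 4828301 reads (full endosperm replicate 2) that could be assigned to an allele, and 1057104 in the met1 father library. EPR1, an extensin-like gene of the endosperm, stood at 187191 CPM (reads scaled to the library's allele-assigned total) in the met1 father library, 451 CPM in the dme mother library and 73.5 CPM in the fie mother library, against 11752 to 207133 CPM in the 5 wild-type endosperm libraries. EPR1 was thus far lower in the dme and fie mother libraries than in wild-type endosperm. Of the 9 endosperm marker genes fixed as a list, 6 had a read in any library and all 6 had one in the dme and in the fie mother library. Without EPR1 they summed to 272 CPM in the met1 father library, 233 CPM with the dme mother and 203 CPM with the fie mother, against 1128 to 5046 CPM in pure and 263 and 477 CPM in full endosperm. Summed over 24 genes of the seed coat, a maternal tissue, the level was 13626 CPM in the met1 father library, 57957 CPM in the dme mother library and 25314 CPM in the fie mother library, against 1955 to 5549 CPM for pure endosperm, 14794 and 10236 CPM for full endosperm and 1183 to 1447 CPM in embryo. Of the seed coat genes TT10 alone stood at 9629 CPM in the met1 father library, 39712 CPM with the dme mother and 19364 CPM with the fie mother. It stood at 452 to 2901 CPM in pure and at 10719 and 7559 CPM in full endosperm. The sum was thus mostly 1 gene in the mutant and full endosperm libraries. In such bulk samples fewer cells of a type and less RNA per cell cannot be told apart. Intervals below are exact (Clopper-Pearson) binomial 95% intervals and cover counting error only.

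The promoters of 3 of the genes are shown, from 250 bases before to 50 bases after the annotated start, because the father in question lacks the enzyme that maintains CG methylation. Capitals mark every CG. SDC is shown for its repeats, AT1G59930 because its level followed that of SDC, and AT1G63540 because it departs from the other 5. The sequences are of the Col reference (RefSeq, TAIR10.1), at chr2:7681912-7682211 on the plus strand, chr1:22061467-22061766 on the minus strand and chr1:23566708-23567007 on the plus strand, and were joined to the counts by locus identifier.
SDC: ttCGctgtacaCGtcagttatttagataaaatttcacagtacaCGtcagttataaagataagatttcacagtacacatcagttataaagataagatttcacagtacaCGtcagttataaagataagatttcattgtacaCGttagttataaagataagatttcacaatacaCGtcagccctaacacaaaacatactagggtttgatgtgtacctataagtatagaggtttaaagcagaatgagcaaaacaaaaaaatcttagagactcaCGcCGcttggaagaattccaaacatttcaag
AT1G59930: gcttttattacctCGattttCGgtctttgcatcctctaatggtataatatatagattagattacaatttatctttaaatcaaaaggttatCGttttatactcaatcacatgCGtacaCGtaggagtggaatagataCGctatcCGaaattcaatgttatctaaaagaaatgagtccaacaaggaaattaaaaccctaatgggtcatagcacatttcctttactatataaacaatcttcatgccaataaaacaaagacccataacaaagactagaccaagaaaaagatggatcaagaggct
AT1G63540: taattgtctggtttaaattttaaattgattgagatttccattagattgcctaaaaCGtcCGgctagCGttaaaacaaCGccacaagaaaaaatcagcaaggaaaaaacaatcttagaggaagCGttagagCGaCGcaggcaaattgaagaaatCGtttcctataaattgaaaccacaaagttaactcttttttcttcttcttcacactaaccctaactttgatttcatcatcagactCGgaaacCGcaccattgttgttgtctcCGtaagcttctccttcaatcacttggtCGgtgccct

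The SDC window holds a tandem repeat of the 32-base unit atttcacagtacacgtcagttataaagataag, 94.8% identical over 3 periods, from 220 to 93 bases before the start, and the CG of the unit sits in its ACGT. Those positions bound the best-matching stretch and not the whole repeat, since similar copies flank it on both sides in the sequence shown. SDC had 8 CG, a number reached by 35.3% of the 27443 promoters of this length, whose median was 6. AT1G59930 and AT4G18650 had 7 each, a number reached by 44.8% of promoters. JLO had 6 (reached by 55.4%) and AT4G31060 had 3 (reached by 86.2%). AT1G63540 had the most among the 6 genes, 12, a number reached by 12.5% of promoters. These counts describe the letters of the Col reference. Methylation was not measured in these files.

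SDC encodes an F-box protein and is known from leaves as a gene silenced by non-CG methylation of its promoter repeats. In the met1 father library it had 33 maternal and 87 paternal reads, a maternal share of 27.5% (19.7 to 36.4). In pure endosperm it had 28 maternal and 0 paternal, 112 and 0, and 54 and 1 reads in replicates 1 to 3. In full endosperm it had 12 and 1, and 65 and 1 reads. The paternal copy was thus read 87 times in the met1 father library and at most 1 time in any wild-type endosperm library. The total level was 114 CPM in the met1 father library, higher than in each wild-type endosperm library (2.85 to 78.2 CPM). The SDC transcript shares 1303 bases at 100% identity with that of AT2G17695, the next gene in the annotation. The use of strand in the counting is not given in the sources used here, so reads of the pair may be mixed. AT2G17695 had 21 maternal and 0 paternal reads in the met1 father library, against 15 and 2 in pure endosperm replicate 3.

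AT1G59930 encodes a short protein of the MADS-box family of transcription factors. It had 202 maternal and 189 paternal reads in the met1 father library, a maternal share of 51.7% (46.6 to 56.7). Pure endosperm gave 166 and 0, 463 and 1, and 337 and 0 reads, whereas full endosperm gave 32 and 0, and 128 and 0. The 189 paternal reads of the met1 father library stand against 1 in the 5 wild-type endosperm libraries together. Its total level of 370 CPM in the met1 father library lay inside the wild-type endosperm range of 7.01 to 464 CPM. Its transcript is 98.8% identical over 419 bases to AT1G59920 and 92.9% over 324 bases to AT5G35120, both listed at 0 reads in the met1 father library and in pure endosperm replicate 3, so its counts may include reads of these copies.

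AT4G18650 is annotated as transcription factor-like. It had 25 maternal and 72 paternal reads in the met1 father library, a maternal share of 25.8% (17.4 to 35.7). In pure endosperm it had 6 and 0, 208 and 8, and 25 and 1 reads. In full endosperm it had 599 and 81, and 67 and 13 reads, or 88.1% (85.4 to 90.4) and 83.8% (73.8 to 91.1) maternal. It was therefore the least strictly maternal of the 5 in full endosperm, and in these preparations its paternal copy was read without a mutant father. Its level of 91.8 CPM in the met1 father library lay within the wild-type endosperm range of 9.15 to 149 CPM.

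AT4G31060 encodes a protein with the DNA-binding domain of ethylene response factors. It had 45 maternal and 62 paternal reads in the met1 father library, a maternal share of 42.1% (32.6 to 52.0). Its reads in pure endosperm were 20 and 0, 142 and 0, and 72 and 5, whereas full endosperm gave 577 and 9, and 157 and 2. Its total level was 101 CPM in the met1 father library, within the wild-type endosperm range of 27.1 to 128 CPM.

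JLO encodes a transcription factor of the LOB domain family that acts in organ boundaries. It had 116 maternal and 45 paternal reads in the met1 father library, a maternal share of 72.0% (64.4 to 78.8). Pure endosperm gave 27 and 0, 349 and 4, and 627 and 7 reads, whereas full endosperm gave 317 and 7, and 209 and 8. JLO was the member whose share moved least, and the only one whose paternal copy gave fewer reads per genome than the maternal copy in the met1 father library, 0.776 times as many, given 2 maternal genomes and 1 paternal genome. The same ratio was 5.76 for AT4G18650, 5.27 for SDC, 2.76 for AT4G31060, 1.87 for AT1G59930 and 1.35 for AT1G63540. The intervals of the maternal share of JLO and of AT1G63540 (59.6%, 50.1 to 68.7) include the 66.7% of genome dose. For these genes the ratio is thus within counting error of dose.

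**Figure D1:**
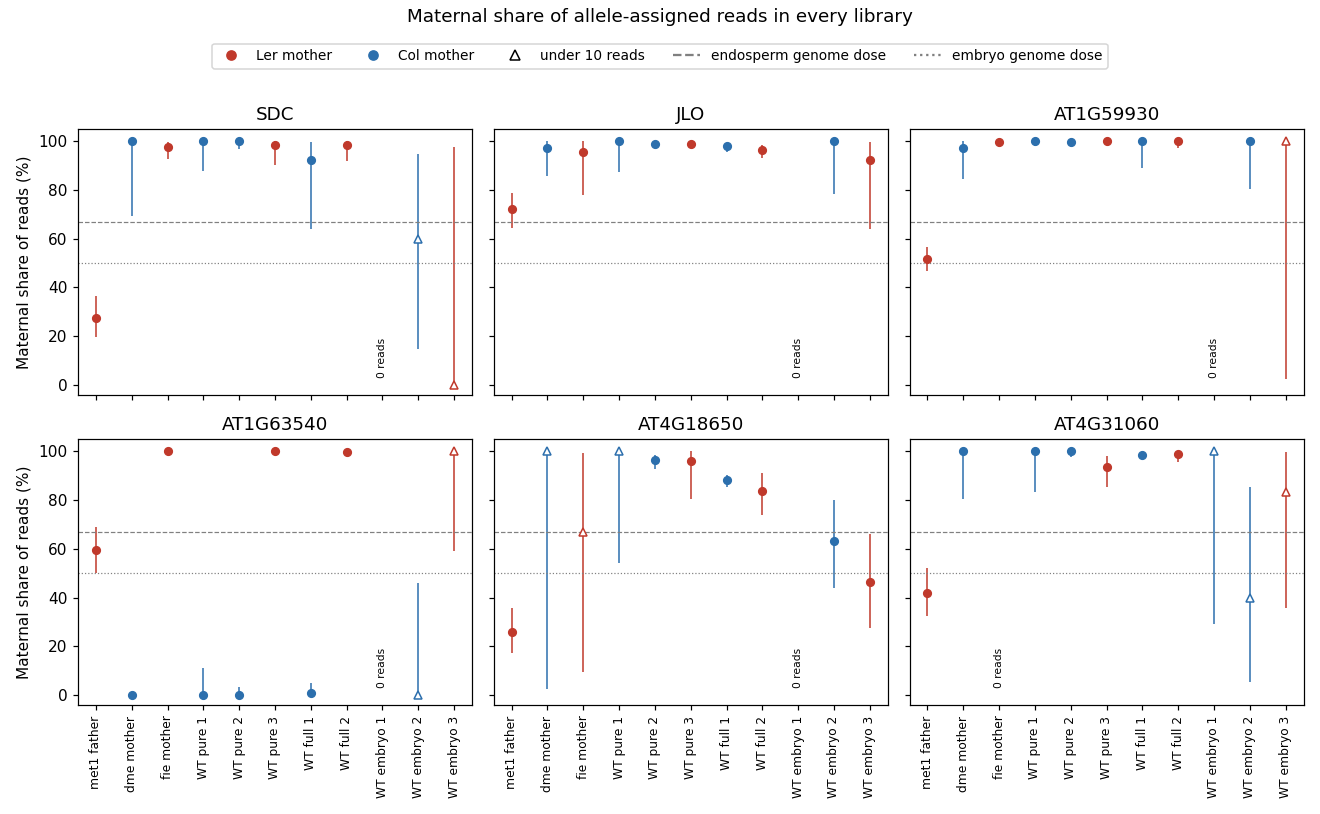
Maternal share of allele-assigned reads (%) of each gene in every library, with exact 95% binomial intervals, by mother (colour); open triangles are libraries with under 10 reads, and lines mark the shares of genome dose in endosperm and embryo. The met1 father library lies below every wild-type endosperm library for 5 genes, and AT1G63540 splits by the mother's ecotype, at 0 or near it with a Col mother.

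AT1G63540, which encodes a protein of the hydroxyproline-rich glycoprotein family, separated by allele and not by parent. With a Col mother, 0 maternal and 270 paternal reads came from the dme mother library, 0 and 31, and 0 and 114 from pure endosperm, and 1 and 106 from full endosperm. With a Ler mother, 437 maternal and 0 paternal reads came from the fie mother library, 306 and 0 from pure endosperm, and 277 and 1 from full endosperm. Over the 8 wild-type libraries this amounts to 2 Col and 847 Ler reads, with no library above 1 Col read. The met1 father library held 46 Col reads beside 68 Ler reads, a Col share of 40.4% (31.3 to 49.9). Those 46 reads exceed the Col reads of all the other 10 libraries, although both Col mothers and Col fathers are among them. Its transcript is 83.5% identical over 260 bases to AT1G63530, which had 4 reads in the met1 father library and 16 in pure endosperm replicate 3. A difference between the ecotypes in the mapping of reads to this gene was not tested.

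**Figure D2:**
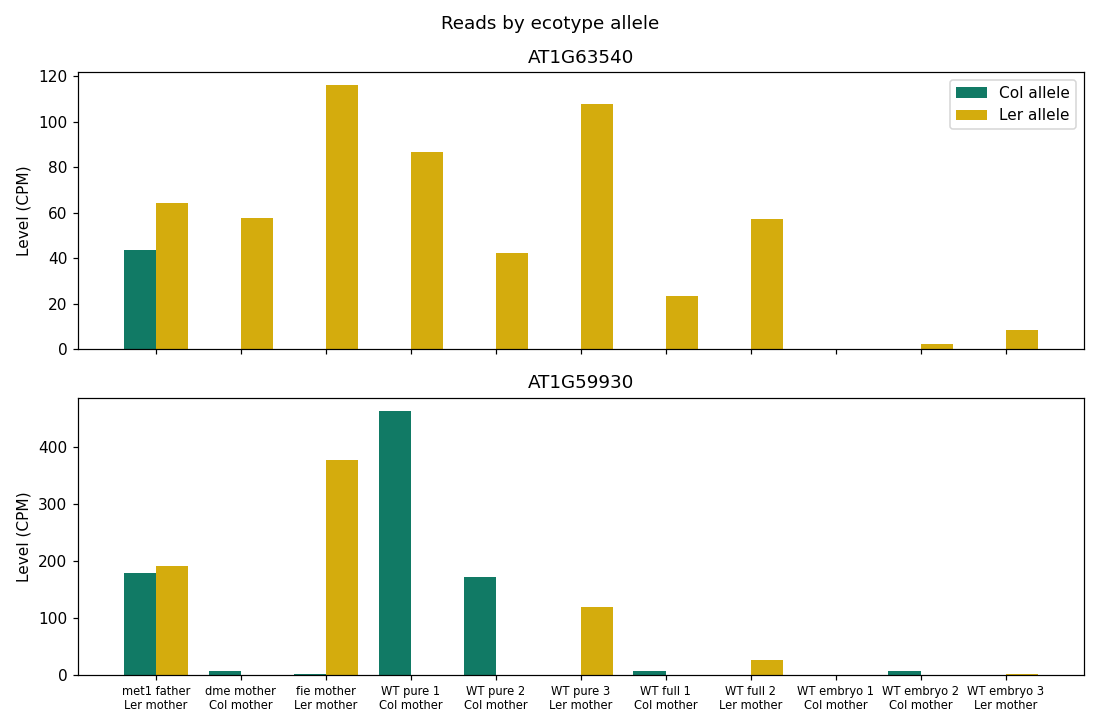
Level in CPM of the Col and Ler alleles of AT1G63540 and, for contrast, AT1G59930 in every library, with the mother named under each. AT1G63540 has at most 1 Col read in each library without a met1 father and 46 in the met1 father library, while AT1G59930 follows the mother in the wild-type endosperm libraries.

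Within the same cross (Ler mother, Col father) the paternal level was many times higher with the met1 father, while the maternal level was 0.497 (JLO) to 2.69 (AT4G18650) times that of pure endosperm replicate 3. Against full endosperm replicate 2 the maternal level was 7.21 times as high for AT1G59930, the most among the 6, and 2.54 times for JLO. The maternal level was also higher for SDC and AT4G18650. For AT4G31060 and AT1G63540 the counting intervals of this fold reached down to 0.918 and 0.847, so a higher maternal level was not clear of counting error. Paternal CPM in the met1 father library was 234 times that of pure endosperm replicate 3 for SDC, 193 times for AT4G18650, 33.3 times for AT4G31060 and 17.3 times for JLO. It was at least 169-fold higher for AT1G59930 and at least 41.2-fold higher for AT1G63540, which had no paternal read in pure endosperm replicate 3 and were set against a floor of 3 reads. Against full endosperm replicate 2 the paternal fold was 397 for SDC, 25.3 for AT4G18650 (counting interval 13.9 to 49.8), 142 for AT4G31060, 25.7 for JLO, 210 for AT1G63540 and at least 288 for AT1G59930, so the sizes and their order depended on the wild-type library. The fold of SDC and of AT4G18650 rests on 1 paternal read in pure endosperm replicate 3, with counting intervals of 40.9 to 9338 and 33.6 to 7746. Maternal CPM in the met1 father library lay within the range of the 5 wild-type endosperm libraries for all 6 genes, and paternal CPM lay above that range for 5 of them. AT1G63540 was the exception, since Ler fathers gave up to 86.6 paternal CPM. The total level with the met1 father, set against pure endosperm replicate 3, was 10.0 times as high for AT4G18650, 5.86 times for SDC, 3.73 times for AT4G31060, 3.12 times for AT1G59930, 1.00 times for AT1G63540 and 0.682 times for JLO. Set against full endosperm replicate 2, it was 5.54 times as high for AT4G18650, 8.30 times for SDC, 3.07 times for AT4G31060, 14.0 times for AT1G59930, 1.87 times for AT1G63540 and 3.39 times for JLO. A higher total thus held against both wild-type libraries of the cross in 4 genes, while for JLO and AT1G63540 it depended on which of them was taken.

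**Figure D3:**
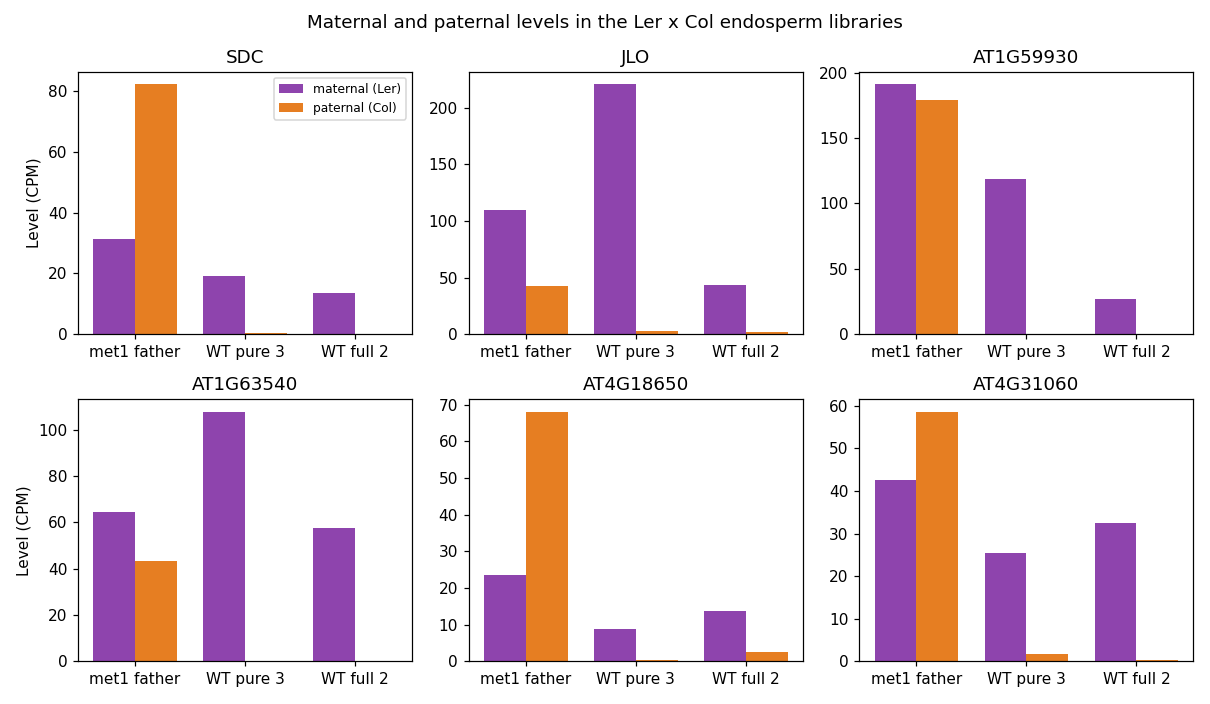
Maternal (Ler) and paternal (Col) level in CPM of each gene in the 3 Ler x Col libraries: met1 father, wild-type pure endosperm replicate 3 and full endosperm replicate 2, 1 library each. Paternal bars stand at 42.6 to 179 CPM with the met1 father and at most 2.69 CPM in the wild-type libraries of that cross.

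The 6 genes stood against a background that moved the other way. Over the 5795 genes with at least 10 reads in the met1 father library and in pure endosperm replicate 3, the maternal share was higher with the met1 father by a median of 7.14 points (5th to 95th percentile −18.0 to 31.0). Among these, 240 genes were at least 95% maternal in pure endosperm replicate 3. That library has a Ler mother, so its share alone does not separate the maternal copy from the Ler allele. AT1G63540 is among the 240. The median share of the 240 in the met1 father library was 99.6%, 21 were under 80% and 5 were under 50%. Besides AT4G18650 and SDC, those under 50% were AUF2 (6 maternal and 10 paternal reads), MRU1 (4 and 6) and AT4G08430 (14 and 20), named here after their values were seen. Genes named in this paragraph other than the 6 were not followed in the other cross direction. The 24 seed coat genes summed to 13626 CPM in the met1 father library, against 2935 CPM in pure endosperm replicate 3 and 10236 CPM in full endosperm replicate 2; their part in the median was not tested. In the fit over all genes the parent term with the met1 father minus that in pure endosperm was −4.94 (JLO), −5.19 (AT4G31060), −5.83 (AT4G18650) and −8.71 (SDC) on the log2 scale, and 0.62 for the median gene. For AT1G59930 and AT1G63540, with 0 paternal reads in pure endosperm replicate 3, the fitted value is no measure of size. The value of SDC rests on 1 paternal and 194 maternal reads over the 3 pure endosperm libraries, so its size is poorly determined. The rule names no threshold. JLO, with the highest share of the 6 in the met1 father library, stood at 72.0%, and 16 of the 21 genes under 80% were not among the 6, of which AT3G24542 (15 maternal and 15 paternal reads) and AT3G08620 (51 and 29) are examples picked after their values were seen.

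**Figure D4:**
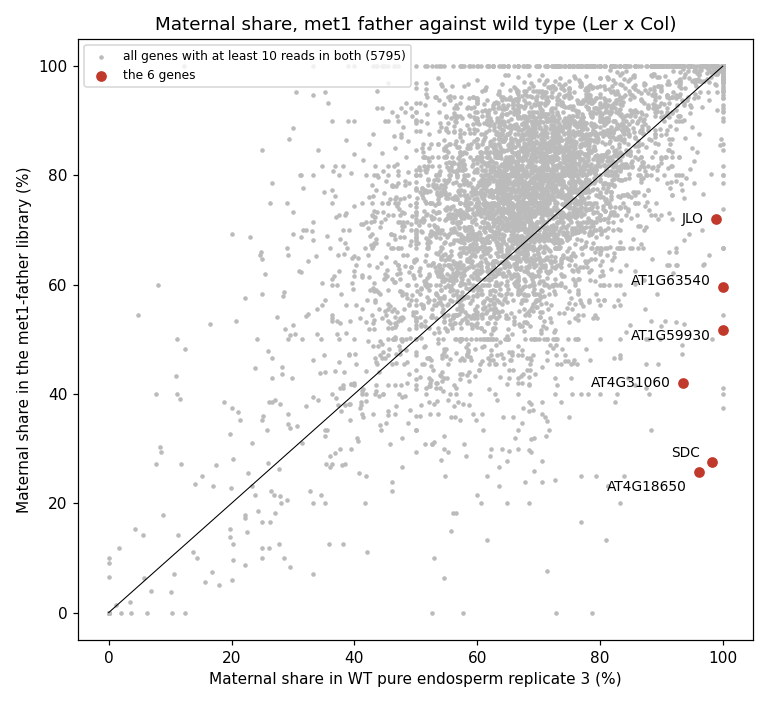
Maternal share (%) in the met1 father library against that in wild-type pure endosperm replicate 3 for the 5795 genes with at least 10 reads in both, with the 6 genes marked and a line of equal shares. The 6 lie at the right edge, at 93.5 to 100% in pure endosperm replicate 3, and at 25.8 to 72.0% with the met1 father.

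Maternal bias against the genome dose was tested in the 2 full endosperm libraries. The genes were taken as maternal in wild-type endosperm with earlier results of these libraries known, so the calls below are not independent evidence of that direction. Of the 6 genes 5 were called maternal and 0 paternal by edgeR's quasi-likelihood test at a Benjamini-Hochberg adjusted p under 0.05, where 19% of the 9174 genes tested were called maternal and 0.491% paternal. DESeq2 called 4 of the 6, and exact binomial tests in both cross directions called 4. The maternal to paternal ratio exceeded the dose by 4.07 ± 0.42 (log2 ± SE) for JLO (adjusted p = 6.91e-21 by edgeR), 4.79 ± 0.46 for AT4G31060 (adjusted p = 4.05e-23), 4.02 ± 0.90 for SDC (adjusted p = 0.000108) and 1.63 ± 0.37 for AT4G18650 (adjusted p = 0.000129). AT1G59930 had 160 maternal and no paternal reads over both libraries (adjusted p = 1.39e-14 by edgeR), so that its fitted ratio is no measure of size. AT1G63540 gave −0.15 ± 0.78 (adjusted p = 0.935). The median over the 6 genes was 4.05, and over all genes tested 0.48. In both full endosperm libraries the 5 genes had shares of 83.8 to 100% maternal. JLO alone kept its call without either full endosperm library. Without full endosperm replicate 2, SDC gave 0.07 (adjusted p = 1), AT4G31060 1.64 (adjusted p = 1), AT1G59930 an adjusted p of 0.0629 and AT4G18650 one of 0.272. Without replicate 1, AT1G59930 had an adjusted p of 1 and AT4G18650 one of 0.735. Of 24 seed coat genes 18 were tested in full endosperm and 16 called maternal. The seed coat sum was higher in full than in pure endosperm. Mean levels in full and pure endosperm were 80.7 and 45.2 CPM for AT4G31060 and 82.8 and 35.3 CPM for AT4G18650. SDC, JLO, AT1G59930 and AT1G63540 had lower mean levels in full than in pure endosperm. The part of seed coat RNA in the maternal calls was not tested.

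In embryo most of the genes had too few reads to test. Of the 6, 2 could be tested, and JLO was called maternal, with 0 and 0, 15 and 0, and 12 and 1 maternal and paternal reads in replicates 1 to 3 (log2 ratio over equal dose 5.38 ± 1.06, adjusted p = 0.00134 by edgeR; DESeq2 adjusted p = 0.201). Markers of other seed tissues were called maternal in the same embryo test: EPR1 (1.02 ± 0.16) and ALE1 (0.99 ± 0.24), both of the 2 endosperm markers tested, and TT10 (9.51 ± 0.79) and MUM2 (2.24 ± 0.43), 2 of 9 seed coat markers tested. TT10 stood at 7.86% and 24.8% of its pure endosperm level in embryo replicates 2 and 3, and the part of such RNA in the call of JLO was not tested. Of the 5447 genes tested 0.789% were called maternal and 0.0184% paternal. AT4G18650 had 19 and 11 reads in replicate 2 and 13 and 15 in replicate 3, shares of 63.3% (43.9 to 80.1) and 46.4% (27.5 to 66.1), with a log2 ratio of 0.29 ± 0.48 (adjusted p = 1). Both alleles of AT4G18650 were thus read in these embryo libraries. As a share of the total level in the pure endosperm library of the same cross, embryo replicates 2 and 3 held 4.69% and 7.21% for JLO, 4.93% and 6.39% for SDC, 4.04% and 1.04% for AT1G59930, 5.81% and 8.04% for AT1G63540, 3.89% and 27.4% for AT4G31060, and 15.3% and 379% for AT4G18650, against 1.42% and 6.70% for the endosperm gene EPR1. The part of endosperm RNA in the embryo values was not tested.

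By total level, 4 of the 6 genes were called higher in full endosperm than in embryo by edgeR, where 13.7% of 12595 genes were called higher and 7.21% lower. The genes were chosen on maternal shares in endosperm, which need reads in endosperm but none in embryo. A higher level in endosperm was thus favoured by the choice, and the calls are not independent evidence of it. DESeq2 called 5. AT4G31060 averaged 80.7 ± 67.5 CPM in full endosperm (SD, n = 2) and 4.80 ± 2.69 CPM in embryo (SD, n = 3), a log2 difference of 4.75 ± 0.73 (adjusted p = 0.00148 by edgeR), and kept its call in every alternative run. AT1G63540 averaged 40.5 ± 24.1 CPM in full endosperm and 3.70 ± 4.46 CPM in embryo (log2 difference 3.81 ± 0.82, adjusted p = 0.0082). JLO averaged 58.0 ± 18.4 and 7.41 ± 8.12 CPM (3.33 ± 0.92, adjusted p = 0.0266) and SDC 8.26 ± 7.65 and 1.09 ± 1.03 CPM (2.78 ± 0.84, adjusted p = 0.0343) in full endosperm and embryo. AT1G59930 averaged 16.8 ± 13.8 and 2.73 ± 3.71 CPM (adjusted p = 0.0538 by edgeR) and AT4G18650 82.8 ± 93.7 and 15.6 ± 17.6 CPM (adjusted p = 0.147), both outside the threshold. AT1G59930 was called by DESeq2 (adjusted p = 0.0310), with no filter beyond 1 read (0.00185), without embryo replicate 2 (0.0235) and with pure in place of full endosperm (0.00114). SDC lost its call without any of full endosperm replicate 2 or embryo replicates 1, 2 or 3 (adjusted p from 0.0708 to 0.425), and with cross direction as a term or without the LCM-titled libraries (0.0643 and 0.0532), JLO without either full endosperm library or embryo replicate 2 (0.0670 to 0.131) and AT1G63540 without full endosperm replicate 2 or embryo replicate 2 (0.0699 and 0.0553).

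In pure endosperm the mean level was highest for AT1G59930 at 251 ± 186 CPM, then JLO at 143 ± 74.7, AT1G63540 at 78.8 ± 33.4, SDC at 46.3 ± 29.7, AT4G31060 at 45.2 ± 15.7 and AT4G18650 at 35.3 ± 38.9 (SD, n = 3 each). CPM is not corrected for transcript length, so this order is of reads and not of transcripts, and neighbours in it differ by less than their spread. SDC and AT1G59930 moved together over the 11 libraries: the Pearson correlation of log2(CPM + 1) was 0.972, and each was the other's nearest among 8755 genes. Both were low in full endosperm, in embryo and with the dme mother, and high in pure endosperm replicate 1 and in the met1 father library. They differed in the fie mother library. There AT1G59930 stood at 378 CPM, beside 370 CPM in the met1 father library, and SDC at 30.3 CPM, beside 114 CPM. The other nearest genes were BEN1 (0.961) and NAC075 (0.956) for JLO, AT-HSFA5 (0.970) and SIAR1 (0.967) for AT1G63540, AT1G36060 (0.963) and AAO2 (0.951) for AT4G31060, and PRXR1 (0.902) for AT4G18650. These libraries differ in preparation, genotype and depth, so the correlations are descriptions. By maternal share over 8 libraries, the genes nearest to the median profile of the 4 genes with enough reads, those genes aside, were AT5G18550 (distance 34.2 points), EIN2 (40.5), AT3G25290 (44.1), AT4G12290 (45.3) and GILT (45.5) among 3242 genes. The profile includes the met1 share by which the genes were chosen. AT5G18550 had 118 maternal and 29 paternal reads in the met1 father library (80.3%). AT1G63540 stood at rank 3234.

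**Figure D5:**
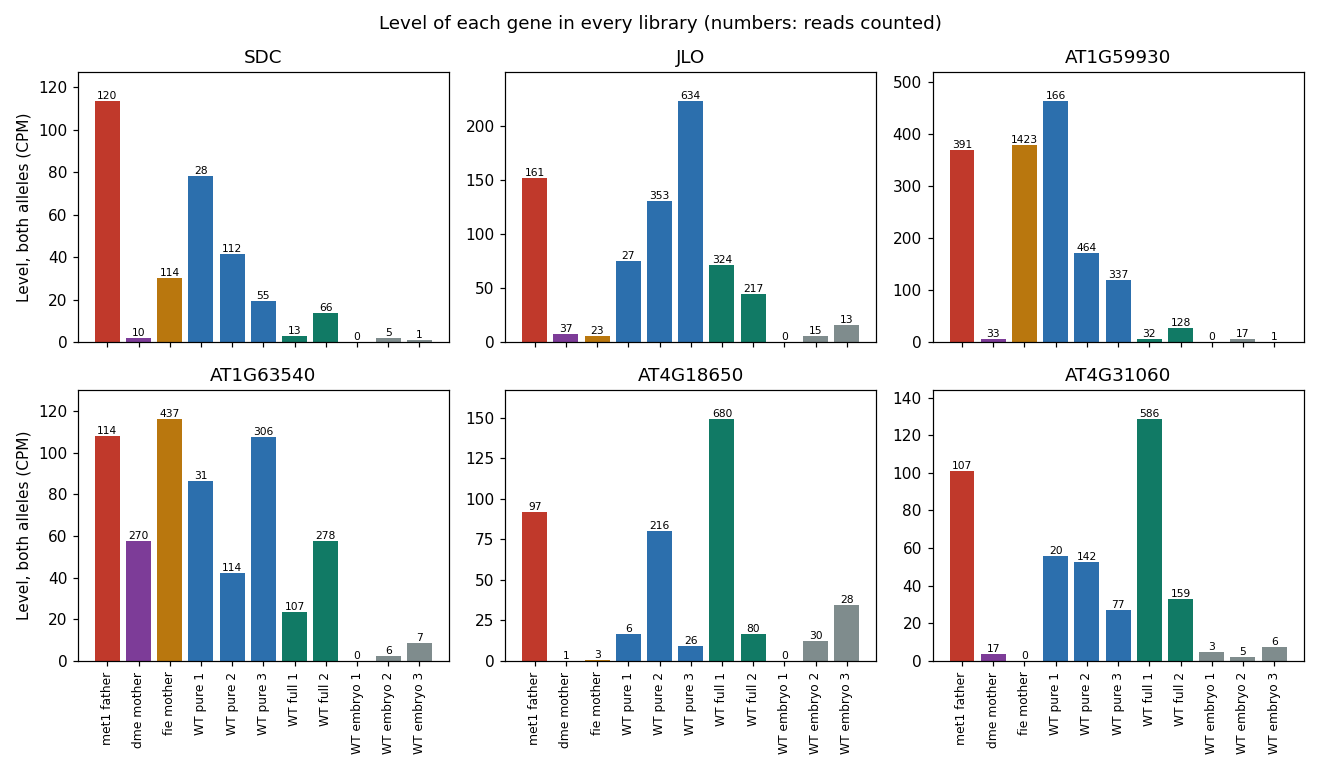
Total level in CPM of each gene in every library (bars, linear axis from 0), with the number of reads above each bar and colours for the groups. Among the endosperm libraries AT4G18650 and AT4G31060 are lowest in the dme and fie mother libraries, at 0 to 3.64 CPM, while AT1G59930 reaches 378 CPM in the fie mother library.

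With a dme or fie mother the levels went different ways. AT4G31060 had 17 reads in the dme mother library, against 586 in full endosperm of the same cross, and 0 in the fie mother library, against 159 in full endosperm of the same cross, at least 41.3-fold lower on a floor of 3 reads. AT4G18650 had 1 read against 680 with the dme mother and 3 against 80 with the fie mother. JLO was at 7.91 CPM in the dme mother library and 6.11 CPM in the fie mother library, against 71.0 and 44.9 CPM in full endosperm of the same crosses. AT1G59930 was at 378 CPM in the fie mother library, against 26.5 CPM in full endosperm, 14.3 times as high (counting interval 11.9 to 17.2), and 3.18 times as high as in pure endosperm replicate 3. With the dme mother it was at 7.06 CPM, against 7.01 CPM in full endosperm but 172 CPM in pure endosperm replicate 2. SDC was at 30.3 CPM in the fie mother library, against 13.7 CPM in full and 19.4 CPM in pure endosperm of that cross, and at 2.14 CPM in the dme mother library, against 2.85 CPM in full and 41.5 CPM in pure endosperm replicate 2. For these genes the difference from wild type thus depended on the preparation taken as wild type. With 1 library per mutant these differences have no replicate check, and EPR1 was far lower in both libraries. The genes with at least 10 reads, AT1G63540 aside, were nearly all maternal: with the fie mother AT1G59930 had 1418 maternal and 5 paternal reads, SDC 111 and 3 and JLO 22 and 1, and with the dme mother JLO had 36 and 1, AT1G59930 32 and 1, AT4G31060 17 and 0 and SDC 10 and 0. Against full endosperm, edgeR called 0 of 5 genes tested with the dme mother, where 29.3% of 8571 genes were called more maternal and 0.898% less maternal. With the fie mother it called 0 of 4, where 10.4% of 8138 genes were called more maternal and 1.24% less maternal. At an unadjusted p under 0.05 the count was 0 in both, as by DESeq2. SDC, JLO, AT1G59930 and AT4G31060 were already 92.3 to 100% maternal in full endosperm. With either mutant mother they had at most 5 paternal reads. The counts of 0 called genes therefore do not show that the bias was alike. The background counts also depended on the expected ratio: against the median ratio of all genes 448 were called more and 381 less maternal with the dme mother, and 512 and 200 with the fie mother.

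Genes of the same pathways were followed as lists. In full endosperm 19% of all genes tested were called maternal and 0.491% paternal, against which the list counts are to be read. Of 10 maternally expressed genes known from the literature, 3 could be tested in full endosperm and 1 was called maternal, MYB3R2 (5.61 ± 0.90, adjusted p = 1.14e-08 by edgeR). MYB3R2 had 2 maternal and 7 paternal reads in the met1 father library, against 13 and 0 in pure endosperm replicate 3. FWA had 1 and 3, against 1 and 0, and HDG9 2 and 0, against 141 and 4, each under 10 reads in the met1 father library. Fh5, a formin of the same list, had 37 and 20 reads in the met1 father library (64.9% maternal), against 21 and 32 in pure endosperm replicate 3 (39.6%), a higher maternal share with the met1 father. Of 10 genes of CG methylation maintenance, 5 were tested in full endosperm and 2 were called paternal, VIM5 (−4.19 ± 0.22) and VIM1 (−1.55 ± 0.26), both of the VIM family that binds methylated DNA (adjusted p = 1.33e-75 and 6.70e-08 by edgeR). Of 19 genes of non-CG and RNA-directed methylation, 14 were tested and 1 called maternal, AGO9, an Argonaute protein. Of 4 demethylase genes, 3 were tested and DML1 was called paternal (−0.63 ± 0.24, adjusted p = 0.0419 by edgeR). Of 10 LBD relatives of JLO, 3 were tested and 2 called maternal, LBD41 and LBD16. Of 9 endosperm and 18 embryo marker genes, 3 and 5 were tested and 0 were called. Of DOG1 and 3 neighbours of AT4G18650, 0 had reads enough to test. With the dme mother 2 of 5, 3 of 14, 2 of 3 and 1 of 2 tested genes of the maintenance, RNA-directed methylation, demethylase and LBD lists were called more maternal (29.3% of all genes), and with the fie mother 2 of 5, 2 of 14, 2 of 3 and 1 of 2 (10.4% of all genes).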

How the data were processed

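Allele-specific RNA sequencing of 11 seed libraries was re-analysed. The deposited values are counts of reads per gene with fewer mismatches in Col or in Ler, aligned to cDNA models per the readme deposited with them. The submitters' processing notes name Bowtie. Its version, the annotation release, strand use and the handling of reads matching several genes were not given in the sources used here. Symbols were joined by locus tag to TAIR10.1 (27688 identifiers matched). The counts carry no build.

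Columns were renamed maternal and paternal by cross. A single fit of every library was made in edgeR 4.0.16 under R 4.3.3 (quasi-likelihood, robust; 1 term per library, Col-against-Ler terms for endosperm and embryo, 1 parent term per group; endosperm tested against 2 maternal to 1 paternal genome dose). Genes needed 10 reads per cross direction. Total levels were tested on summed reads with TMM. Benjamini-Hochberg adjustment covered all tested genes, at 0.05. Each SE is the absolute log2 estimate divided by the square root of the F statistic of its edgeR test. It is approximate, and unstable where the estimate is small. DESeq2 1.42.0 was an alternative. On simulated data with a log2 change of 3, the full endosperm fit recovered 82.8% of 93 changed genes among 8764, and the total fit 97.9% of 97 among 9071. With a log2 change of 2 the full endosperm fit recovered 42.9% of 98 changed genes, and the total fit 72% of 100. The simulation gave every gene the same fixed spread and drew the alleles independently. Recovery may be lower for genes that vary more between libraries. The 6 genes and the lists were chosen with earlier results of these data known, and named genes are the 6, neighbours with 10 reads, called list members, and nearest genes by share and level. Transcript similarity used BLAST 2.17.0.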

Additional observations from a re-analysis of the deposited data

How the results depend on the processing

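Among 285 single-gene values under alternatives, 247 kept direction and side of the threshold, 19 lost a call, 4 gained one and 15 changed sign, none of these 15 a called value. The cause of each move was not tested. Leaving out wild-type replicates in turn, genes called maternal in full endosperm ranged from 425 to 2022 and paternal from 11 to 54, in embryo from 4 to 56 and 0 to 4, more and less maternal with the dme mother from 1278 to 2788 and 36 to 104, with the fie mother from 498 to 998 and 64 to 123, and higher and lower in full endosperm than in embryo from 733 to 1363 and 222 to 891. The embryo bias could not be estimated without embryo replicate 3, since allele and parent are then confounded. DESeq2 gave 759 maternal and 18 paternal calls in full endosperm, 10 maternal in embryo, 1441 more and 20 less maternal with the dme mother, and 401 and 22 with the fie mother. Tested against the median ratio, these counts were 821 and 246 in full endosperm, 2 paternal in embryo, 448 and 381 with the dme mother and 512 and 200 with the fie mother. Embryo calls were 26 maternal at a minimum of 30 reads, and 3 paternal at a minimum of 1 read, without the LCM-titled libraries and by exact binomial tests. With pure endosperm as wild type the fie mother counts were 1292 more and 42 less maternal, and pure in place of full endosperm gave 1084 genes higher than embryo. Without the LCM-titled libraries 1489 genes were lower. AT1G63540 ranged from −3.55 to 3.11 in full endosperm, from −3.39 to 3.36 with the dme mother and from −2.91 to 3.84 with the fie mother over the left-out replicates. With the dme mother SDC ranged from −4.55 to 2.61, JLO from −0.54 to 0.21 and AT4G31060 from −6.19 to 0.79, and SDC with the fie mother from −0.66 to 6.41. With the median ratio SDC gave −0.11 (dme mother) and −0.37 (fie mother), and AT4G31060 −0.82 (dme mother; −0.50 by DESeq2). With pure endosperm as wild type SDC gave −1.29 (dme mother) and −2.16 (fie mother). Against the mean of the 3 pure endosperm libraries the maternal share of the met1 father library differed by −71.9 points for SDC, −55.8 for AT4G31060 and 26.3 for AT1G63540, whose sign turned. Against full endosperm of the same cross it differed by −24.3 points for JLO, −58.0 for AT4G18650 and −56.7 for AT4G31060. No paired analysis was possible because the labels give the libraries no replicate numbers; with cross direction as a term, which the titles do share, 1500 genes were higher and 706 lower in full endosperm than in embryo. The shares of SDC in full endosperm replicate 1 (13 reads, a low level in a deep library) and of all 6 genes in embryo replicate 1 (0 to 3 reads) are imprecise, and 1 met1 father library leaves that contrast without a replicate check.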
